A study of Mus musculus with 6 samples.

Results

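The genes of Wnt signal reception were examined in adult mouse bone from 3 skeletal sites. They were taken by name: the Wnt ligands, the Frizzled receptors (Fzd1 to Fzd10), the R-spondins and their receptors Lgr4, Lgr5 and Lgr6, the receptors Ror1 and Ror2, and, inside the cell, beta-catenin (Ctnnb1), Axin1, Axin2, Nkd1, Nkd2 and the TCF/LEF factors. A probe set was taken when its platform annotation gave exactly 1 such symbol, which yielded 98 of the 45101 probe sets, for 46 of 18194 genes: 19 Wnt genes, 10 Frizzled genes, 4 R-spondins, 3 Lgr genes, 2 Ror genes, and Tcf7l1, Tcf7l2, Lef1, Axin1, Axin2, Nkd1, Nkd2 and Ctnnb1. Tcf7 was not analysed here. Total RNA came from normal bone of untreated male mice weighing 24 to 26 g. The groups were mandible with the teeth left in, calvaria with the sutures removed, and ulna with soft tissue and epiphyses removed, each with 2 Affymetrix Mouse Genome 430 2.0 arrays. The strain was given as Black CD57, the bone as normal and the age as skeletally mature. The 10 mice of the pilot study were divided into 2 groups, and how these groups relate to the 2 arrays of a site was not stated, so every p-value below measures the spread between arrays, which may be technical.

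Wnt ligands are secreted, lipid-modified glycoproteins that bind Frizzled receptors on nearby cells. In the canonical branch this stops the destruction of beta-catenin, for which Axin is a scaffold, and beta-catenin then joins TCF/LEF factors on DNA. R-spondins acting through Lgr4, Lgr5 and Lgr6 keep Frizzled on the cell surface, while Wnt5a with the Ror receptors acts largely without beta-catenin. In bone the canonical branch is known for promoting osteoblast formation and bone mass.

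The TCF/LEF core motif CTTTGA was searched on both strands of the promoters, defined as 250 bases before to 50 bases after the start of each gene, because these are the DNA sequences through which the pathway's own nuclear factors act. It occurred in 16.0% of all 32851 mouse promoters in the RefSeq table (GRCm38.p6) and in 5 of 42 promoters (11.9%) of the 34 named genes that the table matched. Among genes that differed between sites in the tests below, 3 of 17 promoters held it (17.6%), against 2 of 14 promoters (14.3%) of tested genes that did not. These shares lay close to that of all promoters. The 3 promoters are shown because they belong to a Frizzled receptor, a Ror receptor and a ligand that differed between sites, and capitals mark the core, which lay on the opposite strand and therefore reads TCAAAG. A match is a description of the letters and not a binding site.
Fzd1, chr5:4758167-4758466, minus strand: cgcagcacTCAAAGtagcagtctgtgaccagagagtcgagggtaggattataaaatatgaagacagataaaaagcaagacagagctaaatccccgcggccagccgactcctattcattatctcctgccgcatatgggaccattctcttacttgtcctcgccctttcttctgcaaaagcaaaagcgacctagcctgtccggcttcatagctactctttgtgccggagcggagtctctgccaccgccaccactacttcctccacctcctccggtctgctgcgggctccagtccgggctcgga
Ror1, chr4:100095541-100095840, plus strand: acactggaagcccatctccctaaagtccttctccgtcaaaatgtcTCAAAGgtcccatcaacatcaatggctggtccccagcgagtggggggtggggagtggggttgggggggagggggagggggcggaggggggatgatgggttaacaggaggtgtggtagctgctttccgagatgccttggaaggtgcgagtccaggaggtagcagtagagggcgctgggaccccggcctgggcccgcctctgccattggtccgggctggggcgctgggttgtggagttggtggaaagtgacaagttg
Wnt11, chr7:98834862-98835161, plus strand: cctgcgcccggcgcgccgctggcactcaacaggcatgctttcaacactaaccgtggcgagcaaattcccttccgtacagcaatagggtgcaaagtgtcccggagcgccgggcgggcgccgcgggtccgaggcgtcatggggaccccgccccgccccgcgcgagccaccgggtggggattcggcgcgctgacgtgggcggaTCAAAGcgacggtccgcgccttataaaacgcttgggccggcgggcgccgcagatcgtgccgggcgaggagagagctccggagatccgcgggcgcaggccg

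Expression was read as the authors' MAS5 signal, an arbitrary intensity scaled per array, and array medians lay between 30.6 and 33.6. Signals of different probe sets have no common scale, so each gene is compared only with itself across sites. Only probe sets brighter than the median of their array on 2 or more of the 6 arrays were tested, which kept 53 of the 98 probe sets and 34 of the 46 genes. A gene with several tested probe sets was represented by the brightest. Nkd1 and Rspo1 were above the median only on mandible arrays and Rspo3 only on calvaria arrays, so that these 3 genes entered the test through the site where they were high. The same held, for mandible, for 5 further probe sets that do not represent their gene: 2 of Wnt5a and 1 each of Wnt4, Wnt7a and Fzd3. Such probe sets had to differ between sites to be tested, and give no separate support. Of the 34 genes, 15 were above it on all 6 arrays. The other 12 genes (Wnt1, Wnt2, Wnt2b, Wnt3, Wnt3a, Wnt8a, Wnt8b, Wnt9b, Wnt10b, Wnt16, Fzd9 and Rspo4) had signals between 0.153 and 35.4 and were not tested. A gene was called higher or lower when limma gave an adjusted p under 0.05 and the difference was at least 2-fold.

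In mandible 19 of the 34 tested genes were called higher than in ulna and 0 lower. Across all 12326 genes tested, 11.0% were called higher in this comparison and 10.9% lower. In calvaria 10 genes were called higher than in ulna and 1 lower, beside backgrounds of 8.36% and 4.54%. Between the 2 skull bones 8 genes were higher in mandible than in calvaria and 1 was lower, beside 5.14% and 4.01%. The 8 became 4 without the first mandible array and 5 without the first calvaria array. The median log2 difference over the 34 genes was 1.30 for mandible over ulna, 0.44 for calvaria over ulna and 0.69 for mandible over calvaria, whereas the medians over all tested genes were -0.08, -0.05 and -0.09. Dividing by the array median instead of using the deposited scale moved the median of all tested probe sets for mandible over ulna to -0.13, against -0.02 as deposited. When all 46 genes were kept without the filter, the counts were 19 higher and 0 lower for mandible over ulna, 10 and 1 for calvaria over ulna, and 6 and 1 for mandible over calvaria, beside 7.53% higher and 7.46% lower, 5.36% and 3.06%, and 3.46% and 2.54% of all genes. The 19 were not the same genes in both fits: without the filter Nkd1 was lost (adjusted p = 0.0689) and Wnt10b gained (log2 difference 3.42, adjusted p = 0.0398). By adjusted p alone the counts were 22 higher and 1 lower (19.9% and 28.1% of all tested genes) for mandible over ulna, 12 and 1 (15.9% and 18.4%) for calvaria over ulna, and 13 and 2 (10.5% and 16.2%) for mandible over calvaria. In the 39 called comparisons of a gene the arrays of the sites compared did not overlap. With 2 arrays per site this follows largely from the call itself and gives no separate support. In 10 of the 19 called for mandible over ulna, 7 of the 11 for calvaria over ulna and 4 of the 9 for mandible over calvaria, the lower site lay below the array median, where the size of a difference is least certain.

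Fzd1, Fzd2, Fzd3, Fzd8, Lgr4, Ror2, Wnt7a and Wnt9a were called higher than in ulna in both mandible and calvaria. Another 11 genes passed over ulna in mandible alone (Wnt4, Wnt5a, Wnt10a, Rspo2, Fzd6, Lgr6, Ror1, Axin2, Nkd1, Nkd2 and Tcf7l1), and Fzd5 and Rspo3 did so in calvaria alone. Fzd5 missed 2-fold narrowly in mandible and was called there on the deposited scale and after quantile normalization (log2 difference 1.00 in each). Of the 11, Wnt4, Wnt5a, Wnt10a, Fzd6, Lgr6 and Ror1 were also called higher in mandible than in calvaria, which is the test of that difference. For Rspo2, Axin2, Nkd1, Nkd2 and Tcf7l1 the mandible was not separated from the calvaria at these thresholds. Of these, Nkd2 and Tcf7l1 missed only the 2-fold limit over calvaria (log2 differences 0.68 and 0.85, limma adjusted p = 0.049 and 0.026). In 10 tested genes nothing was called: Wnt5b, Wnt7b, Rspo1, Fzd7, Fzd10, Lgr5, Ctnnb1, Axin1, Tcf7l2 and Lef1.

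The tissue labels were checked with cell type markers, since the arrays read whole bone. The 7 tooth genes, among them Dspp of dentine and the enamel gene Ambn, summed to 49399 and 50081 in mandible, 50.9 on each calvaria array, and 68.7 and 58.7 in ulna, and single tooth genes reached 24.97 at most in calvaria and 24.2 at most in ulna. The 9 epithelial genes summed to 5559.9 and 5745 in mandible, 201 on each calvaria array, and 237 and 279 in ulna. The 7 osteoblast genes summed to 29188 and 28159 in mandible, 28849.5 and 32659 in calvaria, and 6051 and 6285 in ulna, with 7 of 7 called higher over ulna at both skull sites. The 10 skeletal muscle genes summed to 46823 and 46650.3 in mandible, 6348 and 6217 in calvaria, and 51122 and 51044 in ulna, so that muscle RNA was present in the ulna although its label describes soft tissue as removed. The sum of the 7 meningeal genes (6571 and 6923 in mandible, 7468 and 6694 in calvaria, and 1124 and 1270.4 in ulna) was mostly Lum, which other connective tissues also express. Ptgds, the more typical meningeal gene, averaged 45.7 in mandible, 1661 in calvaria and 35.4 in ulna, and Foxc1 was also called lower in mandible than in calvaria. Crabp2 of the same list went the other way, with means of 285 in mandible, 21.6 in calvaria and 5.35 in ulna. Of the 6 meningeal genes tested, 2 were called lower and 1 higher in mandible than in calvaria. The 8 genes of neurons and glia summed to 1135 and 1179 in mandible, 1473 and 1451 in calvaria, and 393 and 355 in ulna. The myelin gene Mbp averaged 935 in mandible, 694 in calvaria and 235 in ulna. It made up most of the sum in mandible and ulna but not in calvaria. The neuronal gene Snap25 averaged 0.678 in mandible, 389 in calvaria and 17.8 in ulna. Syt1 and Nefl were likewise called lower in mandible than in calvaria and higher in calvaria than in ulna. Stmn2 went the other way, with means of 115 in mandible, 42.1 in calvaria and 22.4 in ulna, and Tubb3 was called over ulna at both skull sites. Of the 6 genes of this list tested, 3 were called lower and 1 higher in mandible than in calvaria. The 7 cartilage genes summed to 1281 and 1169.9 in mandible, 474 and 430.2 in calvaria, and 307 and 389 in ulna. Among marrow-related lists, the 6 osteoclast genes summed to 6357 and 6117 in mandible, 11463 and 11798 in calvaria, and 2685 and 3233 in ulna. The 8 B cell genes summed to 1275 and 1284 in mandible, 2436 and 2771 in calvaria, and 2505 and 2308 in ulna. The 3 adipocyte genes, all called lower at both skull sites than in ulna, summed to 1823 and 1808 in mandible, 2305 and 2323 in calvaria, and 5682 and 5936 in ulna. The part of these tissues in the differences below was not tested, and in whole bone fewer cells of a type and less RNA per cell cannot be told apart.

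Among the 9 tested Wnt ligands 5 were higher in mandible than in ulna, 2 were higher in calvaria than in ulna, and 5 were higher in mandible than in calvaria, with 0 lower in any comparison. The shares called higher over all tested genes were 11.0%, 8.36% and 5.14%, which also stand beside the counts for the receptors and transducers below. Of the 5 over calvaria, Wnt6 and Wnt11 were lost when the filter was dropped. Wnt5a, a ligand of beta-catenin-independent signalling, had signals of 329 and 378 in mandible, 34.6 and 74.9 in calvaria, and 50.7 and 43.8 in ulna. The mandible arrays stood apart and the calvaria and ulna arrays overlapped. Its log2 difference was 2.79 ± 0.30 (SE) for mandible over ulna (limma, adjusted p = 3.01e-05) and 2.75 ± 0.30 for mandible over calvaria (adjusted p = 9.35e-05), against 0.03 ± 0.30 for calvaria over ulna (adjusted p = 0.949). The other 3 tested probe sets of Wnt5a had log2 differences of 2.93, 3.14 and 1.35 over ulna and 3.10, 3.21 and 1.50 over calvaria, but the last 2 of them had passed the filter only through the mandible arrays. Wnt10a, a canonical ligand needed for tooth and skin appendage development, gave 209 and 153 in mandible, 35.9 and 11.8 in calvaria, and 14.2 and 23.3 in ulna. It was high only in mandible, with log2 differences of 3.18 ± 0.50 over ulna (adjusted p = 0.000412) and 3.08 ± 0.50 over calvaria (adjusted p = 0.0012). Wnt4, which acts in both branches, gave 114 and 101.3 in mandible, 42.4 and 40.0 in calvaria, and 31.3 on each ulna array. These values separated mandible from both other sites by 1.66 ± 0.26 over ulna (adjusted p = 0.000398) and 1.34 ± 0.26 over calvaria (adjusted p = 0.00359) on the log2 scale. A second probe set had passed the filter only through the mandible arrays.

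The ligands Wnt7a and Wnt9a were called higher than in ulna at both skull sites. Wnt9a, known in mice for its part in joint development, gave 61.0 and 83.1 in mandible, 103 and 99.6 in calvaria, and 26.5 and 28.7 in ulna. The ulna arrays were the lowest and the calvaria arrays the highest. The log2 difference was 1.25 ± 0.26 for mandible over ulna (limma, adjusted p = 0.00248) and 1.80 ± 0.26 for calvaria over ulna (adjusted p = 0.000373), while mandible over calvaria was -0.55 ± 0.26 (adjusted p = 0.163). Wnt7a, known for dorsal patterning of the limb, gave 59.6 and 43.1 in mandible, 57.0 and 33.9 in calvaria, and 5.02 and 10.02 in ulna, where it lay below the array median. Its log2 difference over ulna was 2.72 ± 0.55 in mandible (adjusted p = 0.00211) and 2.56 ± 0.55 in calvaria (adjusted p = 0.00487). The calvaria call was lost without the first calvaria array (log2 difference 2.18). The second tested probe set of Wnt7a passed in no comparison. Its log2 difference over ulna was 1.62 in mandible and, with the opposite sign, -0.44 in calvaria.

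Wnt6 and Wnt11 were higher in mandible than in calvaria but were not called against ulna. Wnt11, a ligand mainly of the beta-catenin-independent branch, gave 79.1 and 51.9 in mandible, 21.8 and 28.6 in calvaria, and 35.1 and 23.9 in ulna. Its log2 difference over calvaria was 1.32 ± 0.39 (limma, adjusted p = 0.0338), and over ulna 1.03 ± 0.39 (adjusted p = 0.0537). Leaving out any 1 of the 4 skull arrays ended the Wnt11 call over calvaria (adjusted p between 0.0522 and 0.231). Wnt6, an epithelial ligand in many organs, gave 92.0 and 57.5 in mandible, 36.9 and 29.7 in calvaria, and 38.8 and 47.5 in ulna, with a log2 difference over calvaria of 1.09 ± 0.32 (adjusted p = 0.034). That call was lost without either calvaria array (adjusted p = 0.067 without the first and 0.152 without the second) and without the first mandible array (0.253). Both calls over calvaria were also lost when the filter was dropped (adjusted p = 0.0609 for Wnt11 and 0.0602 for Wnt6). Wnt7b gave 47.1 and 39.0 in mandible, 31.7 and 27.1 in calvaria, and 39.6 and 40.8 in ulna, and Wnt5b gave 31.5 and 77.7 in mandible, 44.2 and 51.0 in calvaria, and 33.8 and 39.5 in ulna. Neither passed the test in any comparison.

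Of the 10 untested Wnt ligands, the signals of 3 are given, chosen after their values were seen. Wnt10b, which promotes bone formation in mice, gave 25.4 and 34.96 in mandible, 2.71 and 13.4 in calvaria, and 2.90 and 2.29 in ulna. Wnt16, known for its effect on cortical bone in mice, gave 4.51 and 1.84 in mandible, 13.6 and 0.891 in calvaria, and 1.59 and 3.73 in ulna. Wnt2 gave 9.67 and 9.51 in mandible, 26.5 and 35.4 in calvaria, and 5.73 and 16.4 in ulna. All but 2 of these signals lay below the array median, and no difference was read from them, Wnt10b being called over ulna only when the filter was dropped.

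Of the 3 tested R-spondins, 1 was called in each comparison, higher in mandible and in calvaria than in ulna and lower in mandible than in calvaria. Rspo3, which amplifies Wnt signals through the Lgr receptors, gave 21.8 and 28.6 in mandible, 114 and 121 in calvaria, and 21.1 and 18.03 in ulna. Calvaria stood far above both other sites, whose arrays lay below the median. The log2 difference was 2.51 ± 0.34 for calvaria over ulna (limma, adjusted p = 0.000234) and -2.27 ± 0.34 for mandible over calvaria (adjusted p = 0.000665), the one call of the family in which mandible was lower. The Rspo3 probe set had passed the filter only through the calvaria arrays, and that of Rspo1 only through the mandible arrays. Both Rspo3 calls were kept when the filter was dropped. Rspo2, known in mice for limb and tooth development, gave 63.7 and 73.3 in mandible, 40.0 and 41.7 in calvaria, and 27.9 and 20.7 in ulna. The sites formed 3 separate steps, of which mandible over ulna was called (log2 difference 1.39 ± 0.32, adjusted p = 0.00519) and the neighbouring steps were not (adjusted p = 0.155 for mandible over calvaria and 0.138 for calvaria over ulna). Rspo1 gave 51.8 and 44.0 in mandible, 9.30 and 29.3 in calvaria, and 17.0 and 10.04 in ulna, and its log2 difference of 1.75 ± 0.66 over ulna fell just short of the threshold (adjusted p = 0.0516). It was called without the first or the second calvaria array (adjusted p = 0.018 and 0.0396).

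**Figure D1:**
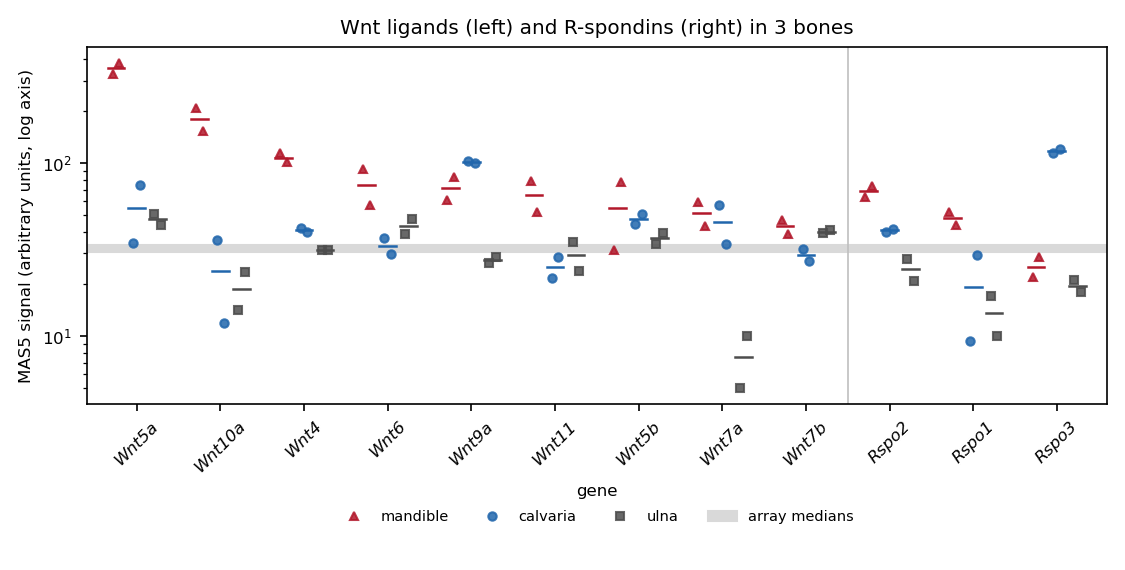
MAS5 signal (log axis) of the 9 tested Wnt ligands and 3 tested R-spondins on each array, with a line at each site mean and a grey band for the range of array medians. Wnt5a, Wnt10a and Wnt4 sit highest on the mandible arrays, Rspo3 at 114 and 121 on the calvaria arrays, and Wnt7a at 5.02 and 10.02 on the ulna arrays.

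Among the 9 tested Frizzled receptors, to which the ligands bind, 5 were higher in mandible than in ulna with 0 lower, and 5 were higher in calvaria than in ulna with 1 lower. Against calvaria only Fzd6 was called higher in mandible. Fzd1 gave 746 and 729 in mandible, 347 and 397 in calvaria, and 103 and 124 in ulna. Its values fell into 3 separate levels, with log2 differences of 2.59 ± 0.13 for mandible over ulna (limma, adjusted p = 8.4e-08), 1.64 ± 0.13 for calvaria over ulna (adjusted p = 3.09e-06) and 0.95 ± 0.13 for mandible over calvaria (adjusted p = 0.000301), the last below 2-fold except without the second calvaria array (1.05). Fzd2 gave 133 and 128 in mandible, 102 and 114 in calvaria, and 22.8 and 32.5 in ulna. Both skull sites were above ulna, by 2.15 ± 0.24 in mandible and 1.92 ± 0.24 in calvaria on the log2 scale (adjusted p = 3.15e-05 and 0.00013), and mandible over calvaria was 0.23 (adjusted p = 0.534). The other 2 tested probe sets of Fzd2 were called in the same 2 comparisons. Fzd3, known for axon guidance and planar polarity, gave 147 and 153 in mandible, 71.3 and 96.9 in calvaria, and 17.9 and 37.1 in ulna, and Fzd8 gave 88.7 and 58.6 in mandible, 84.7 and 62.4 in calvaria, and 10.3 and 25.3 in ulna. Fzd3 was higher over ulna by 2.43 ± 0.33 in mandible and 1.61 ± 0.33 in calvaria, and Fzd8 by 2.05 ± 0.44 in mandible and 2.10 ± 0.44 in calvaria. The second tested probe set of Fzd3, which passed the filter only through the mandible arrays, gave 1.45 in mandible (adjusted p = 0.0236) and was not called in calvaria (0.80, adjusted p = 0.216).

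The remaining Frizzled genes did not share this pattern. Fzd4, the receptor for the retinal vessel factor norrin, gave 187 and 180.2 in mandible, 102 and 95.6 in calvaria, and 270.1 and 263 in ulna. It was the one gene called lower in a skull site than in ulna, with a log2 difference of -1.51 ± 0.13 for calvaria over ulna (limma, adjusted p = 9.09e-06), while mandible over ulna was -0.66 ± 0.13 (adjusted p = 0.00208, below 2-fold). The 7 endothelial marker genes summed to 1031 and 1137 in mandible, 977 and 1077 in calvaria, and 1119 and 1227 in ulna, but they did not move together. Vwf was lower at both skull sites, with means of 222 in mandible, 299 in calvaria and 635 in ulna, and Emcn was higher at both, with 321 in mandible, 266 in calvaria and 90.8 in ulna. Their part in the Fzd4 difference was not tested. The second tested probe set of Fzd4 had the same sign in calvaria over ulna at -0.74 (adjusted p = 0.0138, below 2-fold). Fzd5 gave 184 and 183 in mandible, 257 and 239 in calvaria, and 88.1 and 95.1 in ulna, and was highest in calvaria. Its log2 difference was 1.36 ± 0.14 for calvaria over ulna (adjusted p = 2.91e-05) and 0.89 ± 0.14 for mandible over ulna (adjusted p = 0.000384, below 2-fold), and mandible over calvaria was -0.47 ± 0.14 (adjusted p = 0.0311, below 2-fold). Fzd6, known for hair and epithelial polarity, gave 144 and 161 in mandible, 47.5 and 91.6 in calvaria, and 56.8 and 53.0 in ulna. It was higher in mandible by 1.36 ± 0.28 over ulna (adjusted p = 0.00272) and by 1.17 ± 0.28 over calvaria (adjusted p = 0.0129) on the log2 scale. The call over calvaria was lost without the first calvaria array (adjusted p = 0.0833), the first mandible array (0.0552) or the second (0.0903). Fzd7 gave 191 and 213 in mandible, 141 and 153 in calvaria, and 93.2 and 108 in ulna, and passed the adjusted p over ulna (0.000917 for mandible and 0.0424 for calvaria) at less than 2-fold. In mandible it reached a log2 difference of 1.00 without the second ulna array and on the deposited scale. Fzd10 gave 37.5 and 30.5 in mandible, 22.9 and 32.5 in calvaria, and 39.3 and 22.0 in ulna, with overlapping sites.

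Of the 3 R-spondin receptors 2 were higher in mandible than in ulna, 1 in calvaria than in ulna and 1 in mandible than in calvaria. Lgr4 gave 740.5 and 824 in mandible, 438 and 432 in calvaria, and 204 and 152 in ulna. As for Fzd1, the sites were separate and in the order mandible, calvaria, ulna, with log2 differences of 2.03 ± 0.13 for mandible over ulna (limma, adjusted p = 6.85e-07), 1.23 ± 0.13 for calvaria over ulna (adjusted p = 5.17e-05) and 0.80 ± 0.13 for mandible over calvaria (adjusted p = 0.00143, below 2-fold). Lgr6, a receptor known from epithelial progenitor cells, gave 102 and 99.2 in mandible, 35.8 and 42.9 in calvaria, and 36.9 and 33.2 in ulna. Only the mandible arrays were high, by 1.40 ± 0.26 over ulna (adjusted p = 0.00143) and 1.32 ± 0.26 over calvaria (adjusted p = 0.00461) on the log2 scale, although its second tested probe set was not called (adjusted p = 0.154 over ulna and 0.384 over calvaria). Lgr5, a stem cell marker in several epithelia, gave 37.8 and 18.7 in mandible, 28.8 and 41.0 in calvaria, and 60.5 and 23.1 in ulna, and the sites overlapped.

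Ror2, a receptor tyrosine kinase that binds Wnt5a and is needed for skeletal growth in mice, gave 89.3 and 92.5 in mandible, 48.7 and 67.1 in calvaria, and 8.81 and 9.41 in ulna. The ulna arrays lay far below the others and below the array median. The log2 difference over ulna was 3.20 ± 0.35 in mandible (limma, adjusted p = 3.21e-05) and 2.57 ± 0.35 in calvaria (adjusted p = 0.00028), and mandible over calvaria was 0.63 (adjusted p = 0.244). Ror1, its close relative, gave 91.7 and 78.5 in mandible, 23.2 and 38.7 in calvaria, and 21.1 and 13.1 in ulna. Here mandible was the high site, by 2.23 ± 0.41 over ulna (adjusted p = 0.00125) and 1.46 ± 0.41 over calvaria (adjusted p = 0.0275). The Ror1 call over calvaria was lost without the first calvaria array (adjusted p = 0.155), the first mandible array (0.163) or the second (0.0995). Wnt5a and its 2 Ror receptors were thus all high in mandible, but in calvaria Ror2 was called over ulna and Wnt5a and Ror1 were not (log2 differences 0.03 and 0.77, adjusted p = 0.949 and 0.19). Whether the genes differed from each other in this was not tested.

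**Figure D2:**
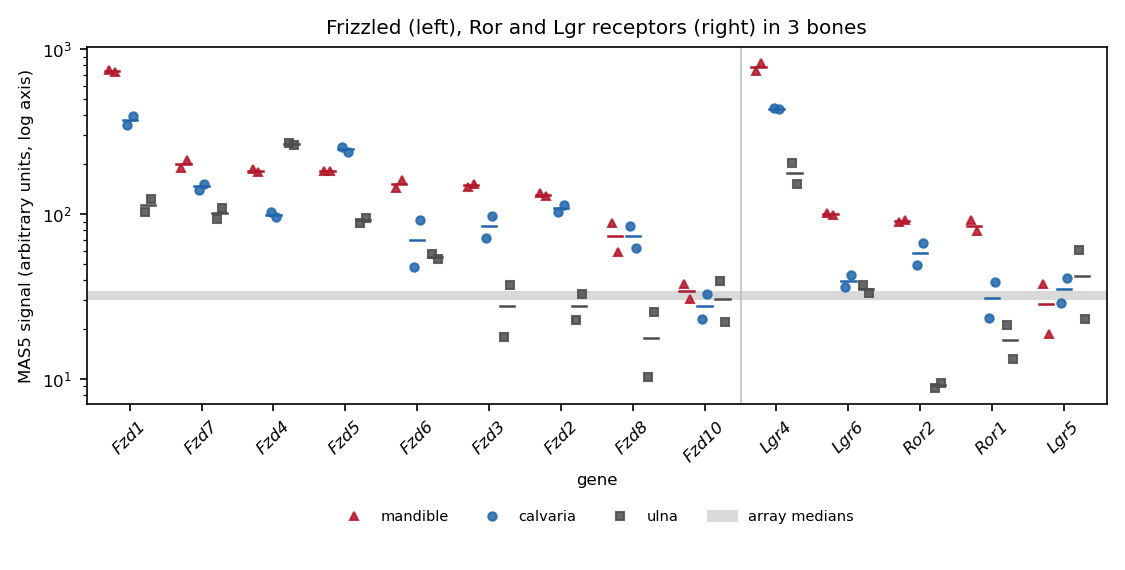
MAS5 signal (log axis) of the 9 tested Frizzled genes and the Ror and Lgr receptors on each array, with a line at each site mean and a grey band for the array medians. Fzd1 and Lgr4 fall into 3 steps in the order mandible, calvaria, ulna, Fzd4 is highest in ulna at 270.1 and 263, and Ror2 is at 8.81 and 9.41 there.

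Inside the cell 4 of the 8 tested genes were called, each for mandible over ulna alone. Ctnnb1, which encodes beta-catenin, gave 4123 and 4286 in mandible, 4243 and 4348 in calvaria, and 2571 and 2522 in ulna. Both skull sites were above ulna by less than 2-fold, with log2 differences of 0.61 ± 0.06 in mandible (limma, adjusted p = 1.17e-05) and 0.68 ± 0.06 in calvaria (adjusted p = 8.27e-06), and were not separated from each other (-0.07, adjusted p = 0.427). Of its other probe sets 1 passed 2-fold, with 687 and 763 in mandible, 662 and 748 in calvaria, and 298 and 296 in ulna, a log2 difference of 1.17 ± 0.10 over ulna at both skull sites. The size of the difference over ulna thus depended on the probe set, while its direction was the same in all 3 tested.

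Axin2, Nkd1 and Nkd2 are feedback inhibitors that the canonical pathway itself induces in many tissues, and all 3 were called higher in mandible than in ulna and in no other comparison. Axin2 gave 89.7 and 69.0 in mandible, 43.4 and 48.2 in calvaria, and 29.4 and 36.3 in ulna. The sites did not overlap, and the log2 difference was 1.15 ± 0.29 for mandible over ulna (limma, adjusted p = 0.00783), 0.41 for calvaria over ulna (adjusted p = 0.323) and 0.74 ± 0.29 for mandible over calvaria (adjusted p = 0.0942). Nkd2 gave 136 and 100.98 in mandible, 68.4 and 73.8 in calvaria, and 53.8 and 49.1 in ulna, with 1.07 ± 0.22 for mandible over ulna (adjusted p = 0.00251). Its other 2 tested probe sets were called in the same comparison at 2.10 and 1.35. Nkd1 gave 40.2 and 47.1 in mandible, 21.5 and 21.1 in calvaria, and 9.65 and 19.9 in ulna, with 1.54 ± 0.55 for mandible over ulna (adjusted p = 0.0414). Among the 19 calls for mandible over ulna, only these 3 were lost when 1 array was left out. Axin2 was lost without the first mandible array (adjusted p = 0.0761) and fell just under 2-fold without the first ulna array (log2 difference 0.99), and Nkd2 fell under 2-fold without the first mandible array (0.87). Nkd1, which had passed the filter only through the mandible arrays, was lost when the filter was dropped (adjusted p = 0.0689), and also without the second calvaria array (adjusted p = 0.0503), the first mandible array (0.106), the second mandible array (0.169) or the first ulna array (0.164). Axin1, which is not known as such a feedback gene, gave 105 and 135 in mandible, 135 and 158 in calvaria, and 133 and 124 in ulna, and its log2 difference was -0.23 for mandible over ulna (adjusted p = 0.312).

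Of the nuclear factors only Tcf7l1, which acts mostly as a repressor of Wnt targets, was called. It gave 236 and 155 in mandible, 116 and 91.1 in calvaria, and 73.6 and 54.7 in ulna, in 3 separate steps. The log2 difference was 1.47 ± 0.24 for mandible over ulna (limma, adjusted p = 0.000505), while calvaria over ulna was 0.62 ± 0.24 (adjusted p = 0.0728) and mandible over calvaria 0.85 ± 0.24 (adjusted p = 0.026, below 2-fold). Without the first calvaria array or the second mandible array it was called over calvaria (1.03 and 1.15). Its second tested probe set was called over ulna at both skull sites (1.42 in mandible and 1.05 in calvaria). Tcf7l2 gave 84.3 and 82.1 in mandible, 67.1 and 82.6 in calvaria, and 55.5 and 46.6 in ulna, and its difference of 0.59 for mandible over ulna did not pass (adjusted p = 0.0565). Lef1, a factor of tooth, hair and lymphocyte development, gave 54.7 and 46.4 in mandible, 57.7 and 51.1 in calvaria, and 63.9 and 32.6 in ulna, and the 3 sites overlapped.

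**Figure D3:**
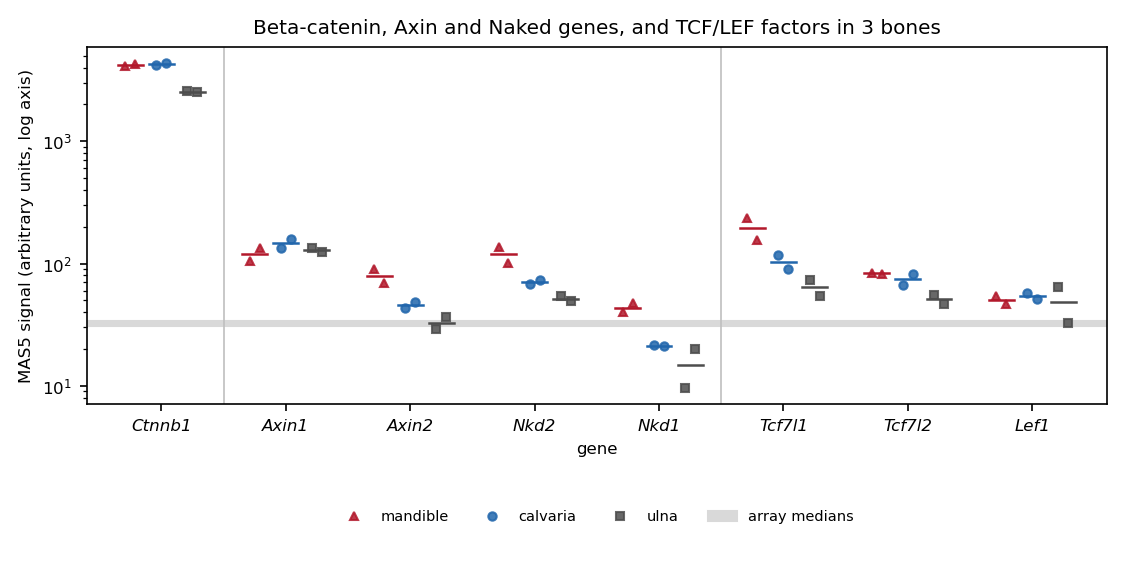
MAS5 signal (log axis) of Ctnnb1, the Axin and Naked genes and the TCF/LEF factors on each array, with a line at each site mean and a grey band for the array medians. Ctnnb1 is lower in ulna, and the feedback genes Axin2, Nkd2 and Nkd1 are highest in mandible. Lef1 overlaps between the sites, and Axin1 overlaps between mandible and ulna.

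**Figure D4:**
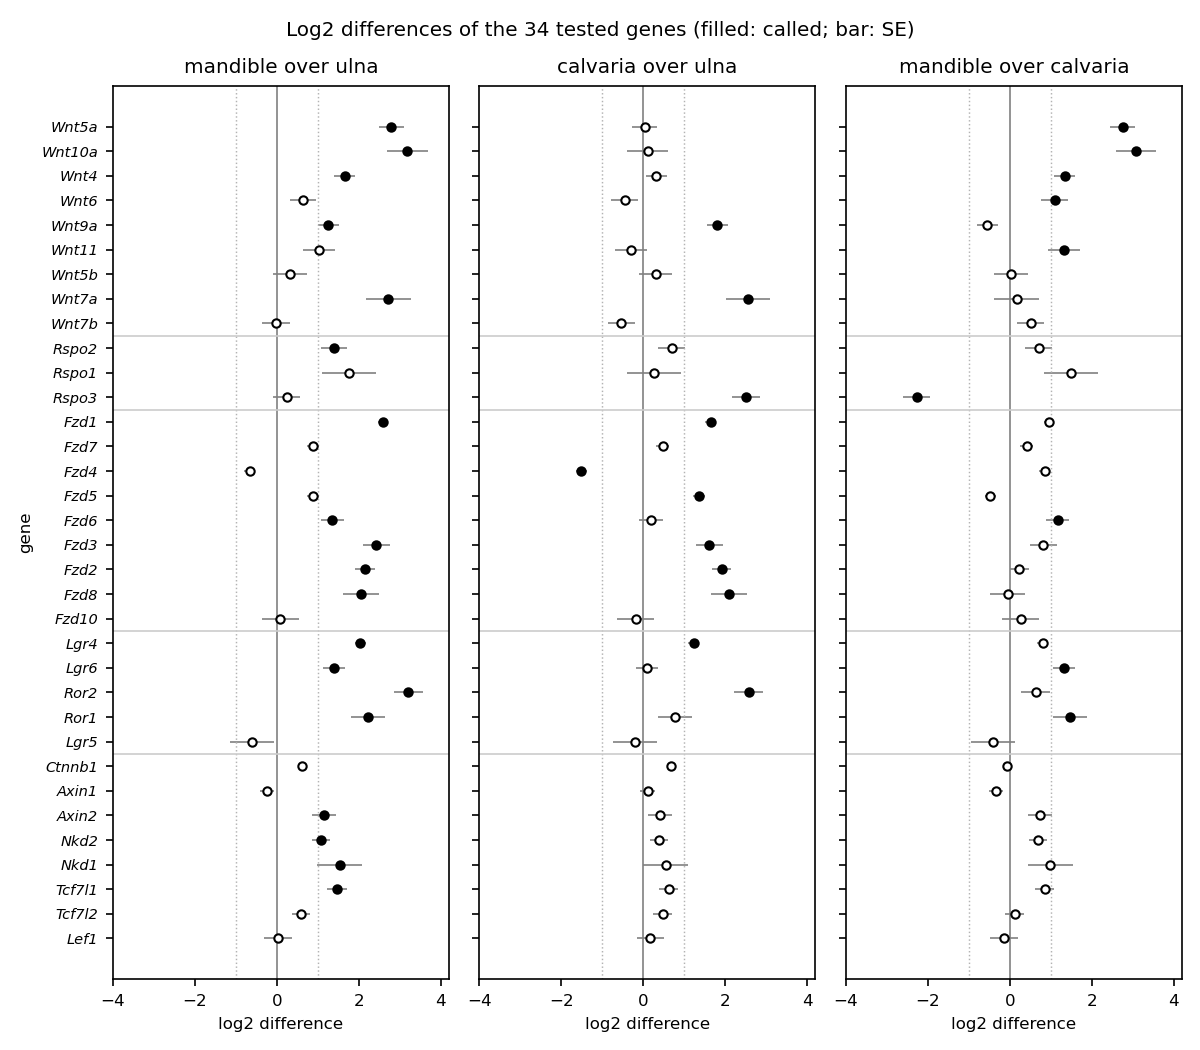
Log2 differences with standard errors for the 34 tested genes in each comparison, filled where called and dotted at 2-fold. Filled points lie to the right of 0 for mandible over ulna (19 of 19), with Fzd4 to the left for calvaria over ulna and Rspo3 to the left for mandible over calvaria.

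The genes around these receptors were read from a list of 70 other pathway genes, of which 69 were on the array and 60 were tested. This list was chosen with earlier results of these data known, so its counts are a description and give no separate support. In mandible 23 of the 60 were higher than in ulna and 0 lower, beside 11.0% and 10.9% of all tested genes. In calvaria 18 were higher than in ulna and 0 lower, beside 8.36% and 4.54%. For mandible over calvaria 7 were higher and 2 lower, beside 5.14% and 4.01%. The counts by role below have the same backgrounds. The median log2 difference over the 60 was 0.82 for mandible over ulna, 0.46 for calvaria over ulna and 0.24 for mandible over calvaria. Over all tested genes these medians were -0.08, -0.05 and -0.09. The 7 calls of mandible over calvaria became 4 without the first mandible array and 3 without the second.

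By role, among 13 tested secreted or membrane antagonists, 8 were higher in mandible and 6 in calvaria than in ulna. Sfrp2, which binds Wnt ligands, averaged 1219 in mandible, 2795 in calvaria and 19.8 in ulna. Frzb, of the same family, averaged 129 in mandible, 13.7 in calvaria and 22.7 in ulna, and was called over ulna in mandible alone. Dkk2, Sostdc1, Wif1 and Dkk3 were called over ulna at both skull sites. Their log2 differences were 3.91, 3.62, 2.77 and 2.29 in mandible and 3.41, 1.79, 1.99 and 2.22 in calvaria. Of 9 co-receptors and surface regulators, 6 were higher in mandible and 5 in calvaria than in ulna, among them Gpc3, a glypican, with means of 162 in mandible, 68.0 in calvaria and 7.13 in ulna. Wls, the carrier of Wnt ligands to the cell surface, averaged 736 in mandible, 386 in calvaria and 212 in ulna, with log2 differences over ulna of 1.68 in mandible and 0.78 in calvaria, the second below 2-fold. Porcn, the other gene listed under secretion, was called over ulna in calvaria (1.19, limma adjusted p = 0.0477) but not in mandible (0.81, adjusted p = 0.133).

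Of the 11 tested planar cell polarity genes, 6 were higher in mandible and 3 in calvaria than in ulna. Cthrc1, a secreted cofactor of the Wnt and Ror2 complex, averaged 752 in mandible, 1514 in calvaria and 66.0 in ulna, and was lower in mandible than in calvaria at a log2 difference of -1.05. Celsr1, a polarity cadherin, averaged 82.6 in mandible, 20.5 in calvaria and 18.4 in ulna, and was called higher in mandible over both other sites. Of 20 tested genes of the cytoplasm and nucleus (the Dishevelled, destruction complex and cofactor genes), only the corepressor Tle2 was called, with means of 103 in mandible, 59.3 in calvaria and 29.0 in ulna (log2 difference 1.71 for mandible over ulna). Among the 5 tested target genes, Ccn4 was higher over ulna in both mandible and calvaria (2.40 and 1.54 on the log2 scale), with means of 1056 in mandible, 564 in calvaria and 184 in ulna. Ccn1 and Ccnd1 were called in calvaria over ulna (1.41 and 1.09) but stayed below 2-fold in mandible (0.79 and 0.97). Myc and Cd44 were not called, with log2 differences over ulna of -0.20 and 0.12 in mandible and -0.07 and -0.18 in calvaria. Sp5 of the same list was not tested. Ccn4, Ccn1 and Ccnd1 have other inputs than the Wnt pathway.

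**Figure D5:**
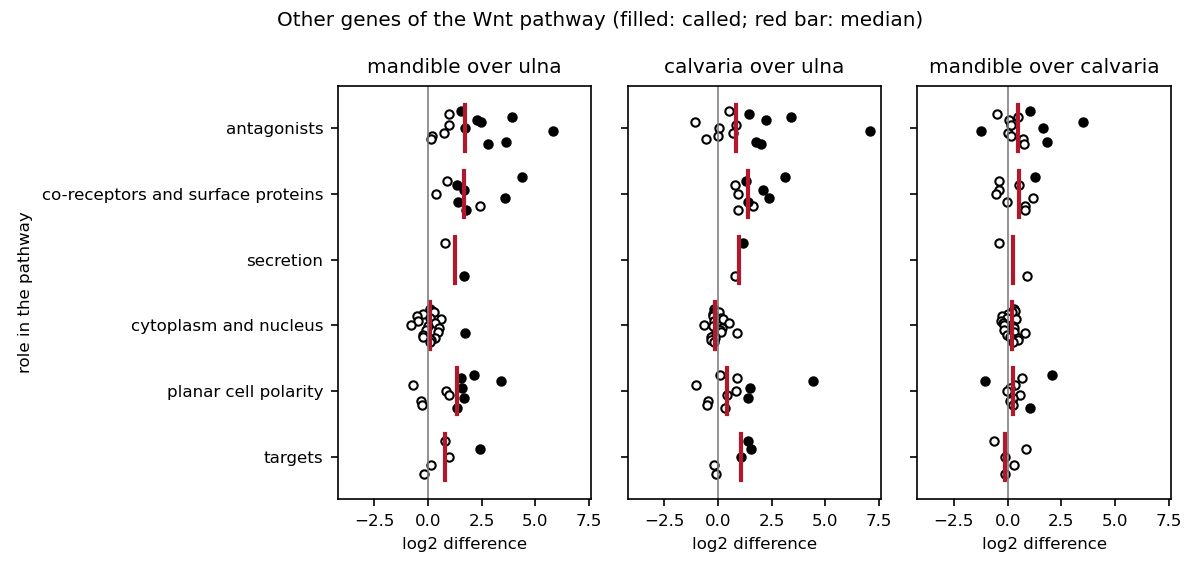
Log2 differences of the 60 other tested pathway genes by role in each comparison, filled where called, with a red bar at the median of each role. Sfrp2, an antagonist, lies furthest to the right for both comparisons with ulna (5.84 in mandible and 7.08 in calvaria), and the cytoplasm and nucleus genes show 1 filled point, Tle2.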

How the data were processed

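Total RNA of mandible, calvaria and ulna was hybridised to Affymetrix Mouse Genome 430 2.0 arrays, 2 per site. The values deposited by the authors are MAS5 signal, a linear intensity per probe set scaled per array (software version not given in the sources used here). The platform annotation named them: 34958 had 1 gene symbol, 932 several and 9211 none. Signals were divided by the array median and log2 transformed. Probe sets above the median on at least 2 arrays (25233, or 55.9%) were fitted with limma 3.58.1 (R 4.3.3) with a mean per site, variances moderated along the trend with signal, and Benjamini-Hochberg adjustment over all 25233. A call required adjusted p below 0.05 and a 2-fold difference or more. Arrays of the same site had a median SD of 0.194 (log2), and 2 arrays per site limit the precision. The test was checked on simulated data. The methods' ANOVA was run as an alternative, beside other scalings, filters, moderation settings, an offset, and each array left out. Gene lists and genes to name were chosen with earlier results of these data known: every named gene is accounted for, with values for those called and for the largest differences in each role among the other pathway genes. Python 3.11.15 and matplotlib 3.10.9 were used for promoters and plots.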

Additional observations from a re-analysis of the deposited data

How the results depend on the processing

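Of the 39 calls of a single Wnt, receptor or transducer gene, 22 were lost under at least 1 setting and 0 reversed, while 17 were lost under none that gave a value, 8 of them having no value under the filter at the 75th percentile; the numbers below are counts of called genes. Testing only probe sets above the 75th percentile left 8 higher for mandible over ulna, 6 for calvaria over ulna and 3 for mandible over calvaria, since fewer genes were tested, and gave no value for 20 of the calls. Without the variance trend 4 were higher for mandible over calvaria. Without moderation 11 were higher for mandible over ulna, 6 for calvaria over ulna and 2 for mandible over calvaria, and of the other pathway genes 2 were higher and 0 lower for mandible over calvaria. The methods' ANOVA over the 3 sites gave 7 higher for mandible over ulna and 2 for mandible over calvaria, with 14 and 4 of the other pathway genes. Among the calls lost both without moderation and in this ANOVA were those of Wnt10a over ulna and over calvaria and that of Wnt5a over calvaria. The Wnt5a call over ulna was lost in this ANOVA alone. With adjusted p alone, 1 was lower for mandible over ulna, and 13 were higher and 2 lower for mandible over calvaria, while of the other pathway genes 4 were lower for mandible over ulna, 3 lower for calvaria over ulna, and 16 higher and 8 lower for mandible over calvaria. Taking the probe set with the lowest p gave 3 other pathway genes lower for mandible over ulna.

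With 1 array left out, the spread of the lone array being taken as that of the other sites, 16 to 20 were higher for mandible over ulna, 9 to 10 for calvaria over ulna and 4 to 8 for mandible over calvaria (4 without the first mandible array, 5 without the first calvaria array). The other pathway genes ran from 22 to 26 higher and 0 to 1 lower for mandible over ulna (1 without the first mandible array), 16 to 20 higher and 0 to 2 lower for calvaria over ulna (2 without the second calvaria array, 1 without the second ulna array), and 3 to 8 higher for mandible over calvaria. Array numbers did not pair the sites (r between -0.0123 and 0.00585 over differences of same-numbered arrays), and with the replicate number as a block 18 genes were higher for mandible over ulna, Nkd1 being lost. On the deposited scale Fzd5, Fzd7, Rspo1 and Wnt11 passed in addition for mandible over ulna (adjusted p = 0.000173, 0.000402, 0.0424 and 0.0375). Where settings moved a count and fewer genes or arrays do not show the reason, the cause was not tested. Signals near or below the array median limit what can be said of the dim ligands.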

Other observations

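Several Wnt genes lie beside each other in the mouse genome with no protein-coding gene between them in the RefSeq table: Wnt6 with Wnt10a, Wnt3a with Wnt9a, Wnt9b with Wnt3, and Wnt10b with Wnt1. Wnt6 and Wnt10a were both called higher in mandible than in calvaria, at log2 differences of 1.09 and 3.08, and over ulna Wnt10a was called (3.18) and Wnt6 was not (0.64, limma adjusted p = 0.133). In the other 3 pairs at most 1 gene was bright enough to be tested, so no pair could be compared there.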
